A study of Mus musculus with 9 samples.

Results

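The genes described here are 10 genes of fatty acid uptake and lipid binding, Cd36, Lpl, Gpihbp1, Fabp3, Fabp4, Fabp5, Vldlr, Slc27a1, Plin2 and Angptl4, found by symbol among the 54532 genes of a table of right ventricular RNA from mice. Each symbol matched 1 row, and all 10 were among the 13477 genes that were tested. The 9 libraries came from wild-type C57BL/6 mice operated at postnatal day 7. The CsA group had fistula surgery, the volume overload operation, and an injection of cyclosporin A, an inhibitor of the phosphatase calcineurin. The VO group had the same surgery without the drug, and the Sham group had a sham operation. Each group had 3 libraries. The labels give neither the age at which tissue was taken nor the dose, and they do not say that each library came from a separate mouse. The p-values therefore measure the spread between these libraries, which may be partly technical.

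The heart takes most of its fuel from fatty acids. Lipoprotein lipase (Lpl) splits the triglyceride of circulating lipoproteins at the capillary wall, where Gpihbp1 on endothelial cells holds it, while Angptl4 inhibits it. Vldlr binds lipoproteins rich in triglyceride. Cd36 and Slc27a1 move the released fatty acids across membranes. The fatty acid binding proteins carry them in the cytosol, Fabp3 in cardiomyocytes, Fabp4 in capillary endothelium and adipocytes, and Fabp5 in endothelium and macrophages. Plin2 coats the droplets in which surplus lipid is stored. Several of these genes are targets of the PPAR nuclear receptors, and Angptl4 and Plin2 are among the most responsive.

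RefSeq promoter windows on GRCm38.p6, from 250 bases before to 50 bases after a transcription start, were found for 5 of the 10 genes (Plin2, Fabp3, Cd36, Slc27a1 and Vldlr), in 8 windows. Lpl, Gpihbp1, Fabp4, Fabp5 and Angptl4 had no entry. Windows of 3 genes are printed because they stand for the patterns described below: Plin2 was highest in library VO 3, Fabp3 was low in VO 1 and VO 2, and Cd36 differed little. They lie at chr4:86670010-86670309 on the minus strand, chr4:130308488-130308787 on the plus strand and chr5:17835847-17836146 on the minus strand, and are written 5′ to 3′ along the gene. Capitals mark matches to the nuclear receptor half-site AGGTCA, which reads TGACCT on the other strand, and to the E-box CACGTG.
Plin2: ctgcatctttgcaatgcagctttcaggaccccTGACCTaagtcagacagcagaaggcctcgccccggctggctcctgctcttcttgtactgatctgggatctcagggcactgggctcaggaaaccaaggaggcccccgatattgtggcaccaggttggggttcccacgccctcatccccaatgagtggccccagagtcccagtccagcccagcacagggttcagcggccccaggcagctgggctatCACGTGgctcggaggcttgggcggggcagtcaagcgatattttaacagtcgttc
Fabp3: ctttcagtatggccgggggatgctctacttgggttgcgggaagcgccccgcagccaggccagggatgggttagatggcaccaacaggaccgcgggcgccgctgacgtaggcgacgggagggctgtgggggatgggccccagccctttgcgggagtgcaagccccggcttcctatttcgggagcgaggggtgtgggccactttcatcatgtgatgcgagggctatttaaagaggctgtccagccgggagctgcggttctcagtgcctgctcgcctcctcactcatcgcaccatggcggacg
Cd36: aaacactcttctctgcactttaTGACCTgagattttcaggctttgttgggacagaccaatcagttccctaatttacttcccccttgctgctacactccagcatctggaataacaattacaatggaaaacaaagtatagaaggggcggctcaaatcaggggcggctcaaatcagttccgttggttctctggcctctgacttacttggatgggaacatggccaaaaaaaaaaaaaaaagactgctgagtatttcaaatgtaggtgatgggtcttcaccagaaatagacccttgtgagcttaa
Plin2 held a half-site that began at position -218 from its start and an E-box that began at position -4. The Cd36 window held a half-site that began at position -228 from its start. That window lies inside the span of the gene (chr5:17781690-17888801, minus strand) and not at its 5′ end. The third Slc27a1 window held an E-box, and the Fabp3 and Vldlr windows held none of the motifs searched. On either strand, AGGTCA occurred in 16.3% of 32851 mouse promoter windows of this length and CACGTG in 7.15%. The TATA box TATAAA occurred in 13.6%, and a direct repeat of the half-site with 1 base between the copies, which can overlap the half-site, in 0.381%. These matches describe letters only.

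In the GRCm38 coordinates of the table, the genes of the capillary wall are Lpl (chr8:68880491-68907448), Gpihbp1 (chr15:75596628-75599481), Angptl4 (chr17:33773750-33781575) and Vldlr (chr19:27216484-27254231). The transporters are Cd36 (chr5:17781690-17888801) and Slc27a1 (chr8:71568882-71587302), and the droplet coat gene is Plin2 (chr4:86648386-86670060). Fabp4 (chr3:10204088-10208576) and Fabp5 (chr3:10012548-10016607) lie on the same chromosome, and Fabp3 (chr4:130308595-130315463) shares that of Plin2.

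Levels are FPKM values, which divide the fragments of a gene by its length and by the depth of the library, as the authors deposited them. Fabp3 had the highest mean over the 9 libraries at 1340.2 FPKM, followed by Cd36 at 777 FPKM, and the ranges of these 2 genes over the libraries overlapped. Lpl at 256 FPKM and Fabp4 at 169 FPKM came next, and their ranges also overlapped. The other 6 genes averaged between 17.2 FPKM (Plin2) and 36.7 FPKM (Vldlr). Plin2 (14.3 to 24.3 FPKM) and Slc27a1 (13.6 to 23.4 FPKM) lay wholly below Vldlr (29.2 to 43.5 FPKM). All other pairs among these 6 had overlapping ranges. This order depends on the gene length used. The table divides Fabp4 by 4489 bases, its whole genomic span, while its longest coding transcript has 896 bases. Per length of the longest coding transcript Fabp4 would rank 2 of the 10 in place of 4, at 847 FPKM, and Angptl4 would rank 10 in place of 6. Comparisons of 1 gene between libraries do not depend on that length. The span of Fabp3 overlaps those of the minus-strand genes Gm10570 and Zcchc17, and the use of strand in counting is not given. Their reads in a shared stretch therefore cannot be told apart from those of Fabp3. How far the exons overlap was not examined. Its pseudogene Fabp3-ps1 had 0.367% to 1.33% as many fragments as Fabp3, and how reads that match both were counted is not given.

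**Figure D1:**
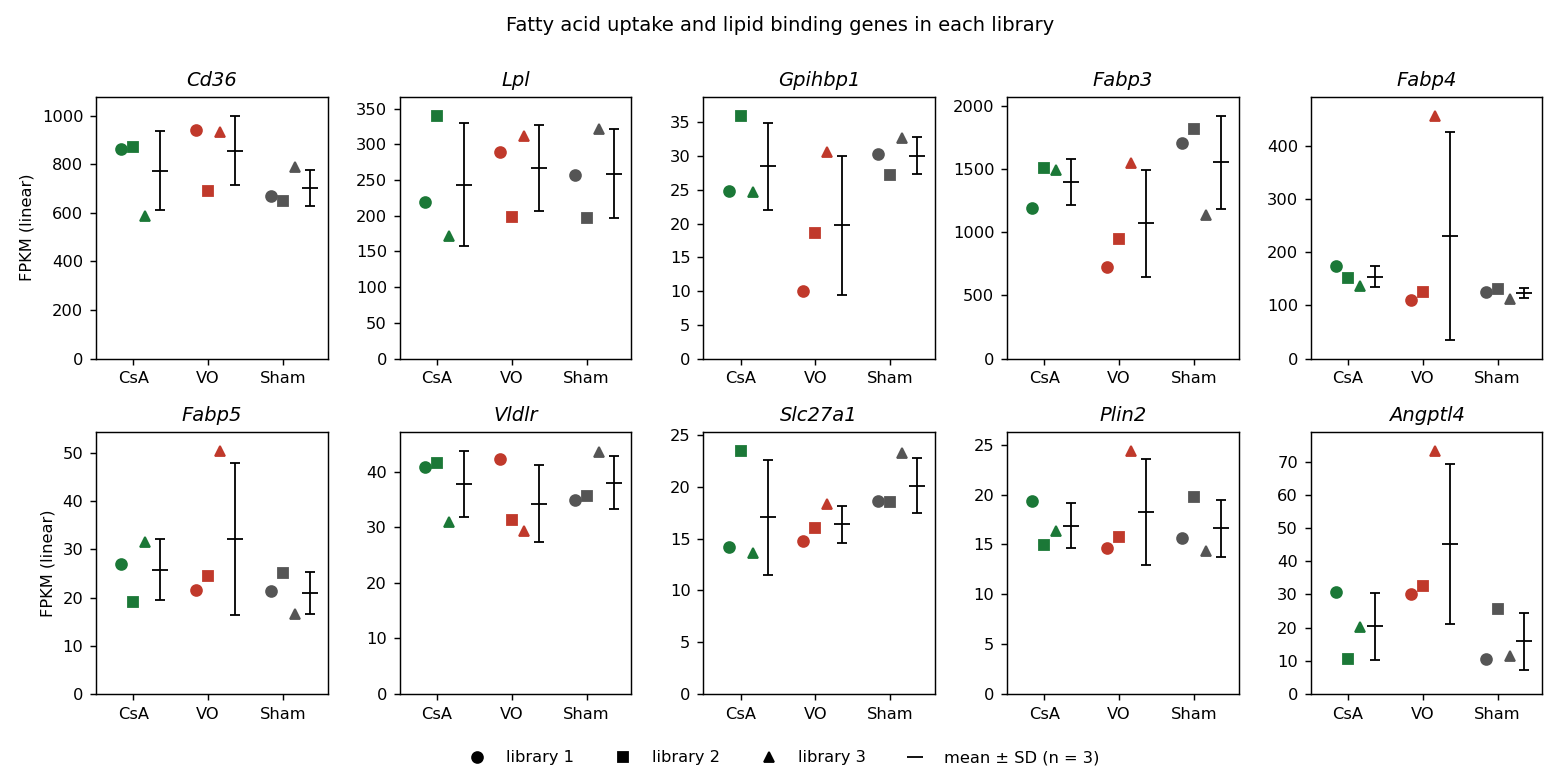
Level of each of the 10 genes in every library on a linear FPKM axis that starts at 0, with CsA in green, VO in red and Sham in grey. Symbols mark libraries 1 to 3, and bars give the mean ± SD of 3 libraries. Library VO 3 lies far above the other VO libraries for Fabp4, Fabp5 and Angptl4.

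The 9 libraries held 12046288 to 15986747 fragments on genes. All 12 cardiomyocyte markers and all 15 endothelial markers were above 0 in every library. Library VO 3 stood apart: 11.0% of its fragments came from mitochondrially encoded genes, against 22.2% to 26.3% in the other 8 libraries, and 17003 genes were above 0, against 19619 to 20479. Its 7 erythroid markers summed to 2041 FPKM, against 593 to 1041 FPKM elsewhere. Atrial markers summed to 559 FPKM in Sham 1, 586 FPKM in Sham 3 and 145 FPKM in CsA 3, and to between 2.10 and 23.0 FPKM in the other 6 libraries. Sham 2 was the only library with the Y-linked gene Ddx3y above 0, at 18.6 FPKM. Its level of the X-linked gene Xist was 0.00401 FPKM, against 10.2 to 66.3 FPKM in the other 8 libraries.

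None of the 10 genes passed the test in any of the 3 comparisons. The test was limma on log2(FPKM + 1), with Benjamini-Hochberg adjusted p under 0.05 over all genes tested. In VO against Sham 4.76% of all genes passed, and in CsA against VO and in CsA against Sham 0.00% did. At an unadjusted p under 0.05, limma took 1 of the 10 in VO against Sham (29.3% of all genes), 1 in CsA against VO (16.5%) and 0 in CsA against Sham (1.48%). In VO against Sham the median log2 fold change was 0.07 over the 10 genes and 0.00 over all genes.

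**Figure D2:**
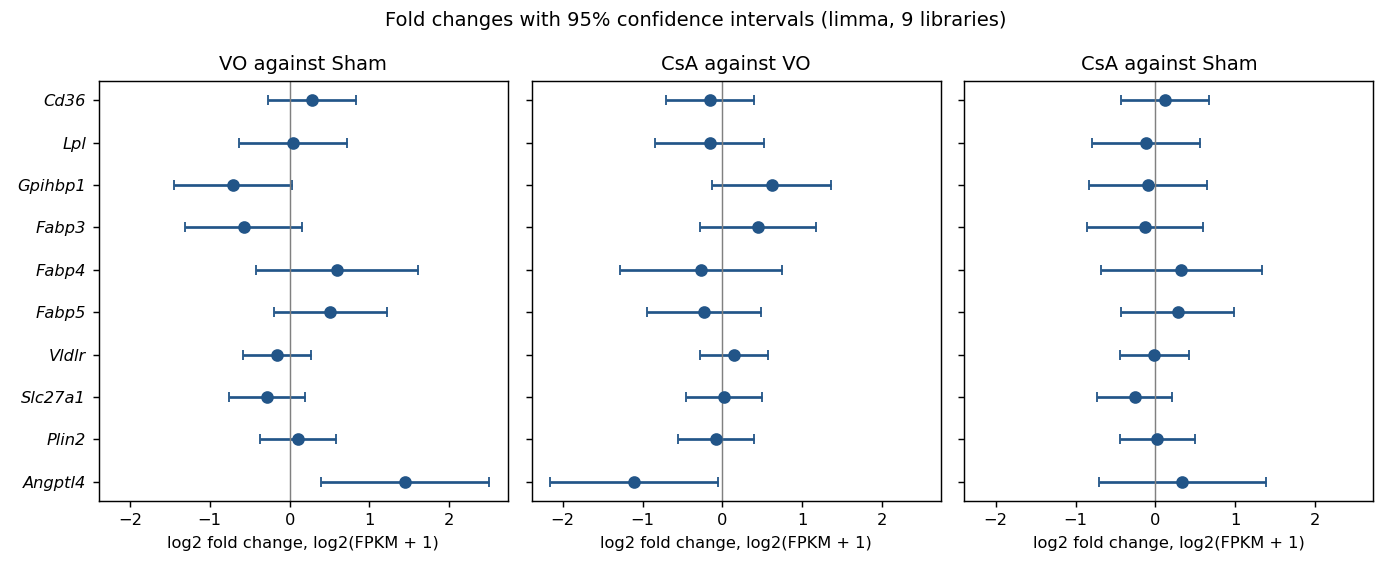
Log2 fold change of each of the 10 genes with its 95% confidence interval from limma, for VO against Sham, CsA against VO and CsA against Sham. Intervals of Angptl4 lie above 0 in VO against Sham and below 0 in CsA against VO before adjustment over all genes, and those of the other 9 genes include 0.

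Among the genes that act at the capillary wall, the inhibitor Angptl4 had the largest fold change of the 10 with all 9 libraries. Gpihbp1 had a larger one without VO 3, and Fabp3 without Sham 1, Sham 3 and CsA 3. Angptl4 had 30.1, 32.5 and 73.2 FPKM in VO libraries 1 to 3, against 10.5, 25.6 and 11.5 FPKM in Sham libraries 1 to 3. Every VO library was above every Sham library, with VO 3 far above the rest and Sham 2 the highest of its group. The VO mean was 45.3 ± 24.2 FPKM, against a Sham mean of 15.9 ± 8.50 FPKM (SD, 3 libraries each). The log2 fold change was 1.45 ± 0.468 (SE), with a 95% confidence interval of 0.40 to 2.50 and a limma adjusted p of 0.0846. Without VO 3 it was 1.05 (limma adjusted p = 0.132), and without Sham 2 it was 1.83 (limma adjusted p = 0.0679). Leaving out Sham 1, Sham 3 and CsA 3, the libraries with the most atrial marker RNA, gave 0.68, with 1 Sham library left. That library was Sham 2, the only one with Ddx3y above 0, so this setting also sets libraries of unlike sex markers against each other. The parts of atrial tissue and of sex in this difference were not tested.

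Gpihbp1, which anchors the lipase, had 10.02, 18.7 and 30.6 FPKM in VO libraries 1 to 3, against 30.3, 27.2 and 32.6 FPKM in Sham libraries 1 to 3. VO 1 and VO 2 lay below all Sham libraries and VO 3 lay among them. This was a log2 fold change of -0.71 ± 0.330 (SE), with limma adjusted p = 0.188. Lpl itself had 289.9, 198 and 311 FPKM in VO libraries, against 258, 197 and 322 FPKM in Sham libraries. The groups overlapped almost fully, and the log2 fold change was 0.04, with a 95% confidence interval of -0.64 to 0.72. Vldlr had 42.2, 31.3 and 29.2 FPKM in VO libraries, against 34.9, 35.7 and 43.5 FPKM in Sham libraries. These overlapped as well, at a log2 fold change of -0.16 with an interval of -0.59 to 0.27. In bulk RNA, fewer cells of a type and less RNA per cell cannot be told apart.

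The ratio of Gpihbp1 to Lpl was lower in every VO library than in every library of the other groups. Gpihbp1 FPKM was 3.46%, 9.44% and 9.82% of Lpl FPKM in VO libraries 1 to 3, against 11.8%, 13.8% and 10.1% in Sham libraries. In CsA libraries it was 11.3%, 10.6% and 14.4%, all above the VO libraries. VO 1 lay far below the rest, while VO 3 and Sham 3 were close. This ratio was chosen after values were seen and gets no test. GC content was 53.5% for Gpihbp1 and 43.5% for Lpl, and the ratio was not corrected for a trend with it. The part of that trend in the ratio was not tested. Set against the summed FPKM of 15 endothelial markers, Gpihbp1 was 2.18% to 4.75% in VO and 3.64% to 4.28% in Sham, which overlapped.

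Of the membrane transporters, Cd36 had 942, 691 and 934 FPKM in VO libraries, against 669.7, 647 and 786 FPKM in Sham libraries. VO 2 lay within the Sham range and the other VO libraries lay above it. The log2 fold change was 0.28 ± 0.246 (SE), with limma adjusted p = 0.483, and it turned to -0.08 once a trend with GC content was removed. Slc27a1, which encodes a fatty acid transport protein, had 14.8, 16.1 and 18.3 FPKM in VO libraries, against 18.7, 18.5 and 23.2 FPKM in Sham libraries. The groups did not overlap, although VO 3 and Sham 2 nearly met. The log2 fold change was -0.28 ± 0.212 (SE), with limma adjusted p = 0.410, and with the GC trend removed it was 0.03. Angptl4 and Slc27a1 were the 2 of the 10 genes whose VO and Sham libraries did not overlap, and 33.1% of all tested genes had that property.

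The cytosolic binding proteins differed in which library was high. Fabp3 had 727, 944 and 1543 FPKM in VO libraries, against 1707, 1816 and 1134 FPKM in Sham libraries. VO 1 and VO 2 lay below all Sham libraries and VO 3 lay within their range. Its log2 fold change was -0.58 ± 0.326 (SE), and limma adjusted p was 0.265. Fabp4 had 111, 125 and 456 FPKM in VO libraries, against 126, 129.8 and 112 FPKM in Sham libraries. VO 3 alone was high, VO 2 lay within the Sham range and VO 1 just below it. Fabp5 had 21.6, 24.5 and 50.4 FPKM in VO libraries, against 21.4, 25.1 and 16.5 FPKM in Sham libraries, and again VO 3 alone stood out. Log2 fold changes were 0.59 ± 0.451 (SE) for Fabp4 and 0.51 ± 0.317 for Fabp5, with limma adjusted p of 0.410 and 0.309.

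The droplet coat gene Plin2 had 14.7, 15.7 and 24.3 FPKM in VO libraries, against 15.7, 19.8 and 14.3 FPKM in Sham libraries. VO 3 was the highest of all 9 libraries and the other VO libraries lay within the Sham range. Plin2 had a log2 fold change of 0.11, with a 95% confidence interval of -0.37 to 0.58.

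Library VO 3 had the highest value of the 9 libraries for 4 of the 10 genes, Fabp4, Fabp5, Plin2 and Angptl4, and for 27.3% of all tested genes. Fabp4 and Plin2 are also expressed in fat, so adipocyte markers were read beside them. Of 13 markers of white and brown adipocytes, 11 were at 0 in VO 3, among them Adipoq, Plin1, Cfd and Ucp1. The exceptions were Cidea and Lipe. Cidea had 30.6 FPKM in library VO 3 against 10.4 to 20.3 FPKM in the other libraries, and Lipe had 3.28 FPKM in VO 3. Zeros were common elsewhere too: 9 of the 13 were at 0 in each CsA library, in VO 2 and in Sham 2, 10 in VO 1 and 6 in Sham 1. Sham 3 held the most of the markers, with 2 of 13 at 0, Ucp1 at 3.30 FPKM and Cfd at 1.59 FPKM. Its Fabp4 level of 112 FPKM was the lowest of the Sham group. Lep and Retn were at 0 in all 9 libraries. The summed level of the 13 markers ranged over 19.2 to 22.3 FPKM in CsA libraries, 13.7 to 33.9 FPKM in VO libraries and 23.4 to 26.0 FPKM in Sham libraries, most of it from Cidea and Lipe. Without these, the other 11 markers summed to 0.0522 to 0.235 FPKM in CsA libraries, 0 to 0.131 FPKM in VO libraries, and 0.594, 0.0735 and 8.11 FPKM in Sham libraries 1 to 3. The part of fat cells in the Fabp4 and Plin2 levels was not tested. The part of the lower mitochondrial share and the higher erythroid sum of VO 3 in its high values was not tested either.

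**Figure D3:**
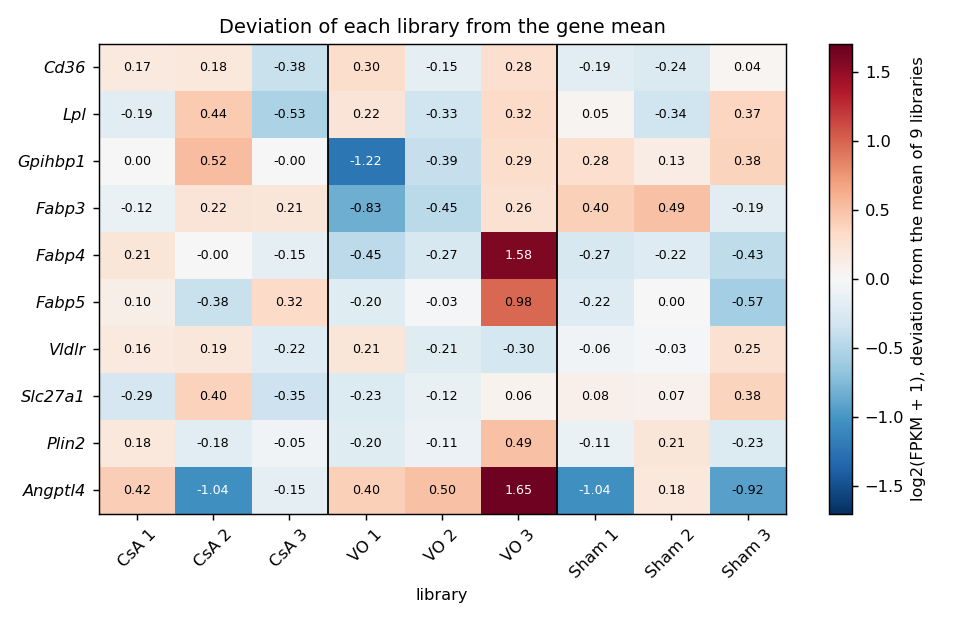
Deviation of each library from the mean of the 9 libraries on the log2(FPKM + 1) scale for the 10 genes, with red above the mean and blue below it. VO 3 reaches 1.58 for Fabp4 and 1.65 for Angptl4, while VO 1 is at -1.22 for Gpihbp1 and -0.83 for Fabp3.

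Leaving out VO 3 brought 2 of the 10 genes past the test in VO against Sham, both lower, where 15.1% of all genes passed and 8.10% passed as lower. Gpihbp1 fell by 1.07 on the log2 scale (SE 0.257, limma adjusted p = 0.0377), and Fabp3 fell by 0.88 (SE 0.237, limma adjusted p = 0.0455). With the GC trend also removed, a setting chosen after the data were seen, 0.141% of genes passed and 0 of the 10 did, at -0.84 for Gpihbp1 (limma adjusted p = 0.0848) and -0.62 for Fabp3 (limma adjusted p = 0.142). Markers of several cell types moved with them, while those of fibroblasts and erythroid cells did not. Without VO 3, 5 of 15 endothelial markers were lower and 0 higher, with a median log2 fold change of -0.64, and 6 of 12 cardiomyocyte markers were lower and 0 higher, with a median of -0.61. In the same setting 2 of 6 smooth muscle and pericyte markers were lower and 0 higher (median -0.77), and 2 of 9 macrophage markers were lower and 1 higher (median -0.70). Of 6 fibroblast markers 0 were lower and 1 higher (median 0.10), and of 7 erythroid markers 0 were lower and 0 higher (median 0.11). Of 5 atrial markers 0 passed (median -3.26), and of 2 tested adipocyte markers 1 was lower. The summed endothelial markers were 460 to 643 FPKM in VO and 636 to 896 FPKM in Sham, and the summed cardiomyocyte markers were 10289 to 16974 FPKM in VO and 13835 to 17334 FPKM in Sham. The part of cell makeup in the fall of Gpihbp1 and Fabp3 was not tested. Fabp4 was at -0.06 and Plin2 at -0.11 without VO 3, and Fabp5 was at 0.15. The groups of 4 of the 10 genes then did not overlap, against 55.1% of all genes.

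**Figure D4:**
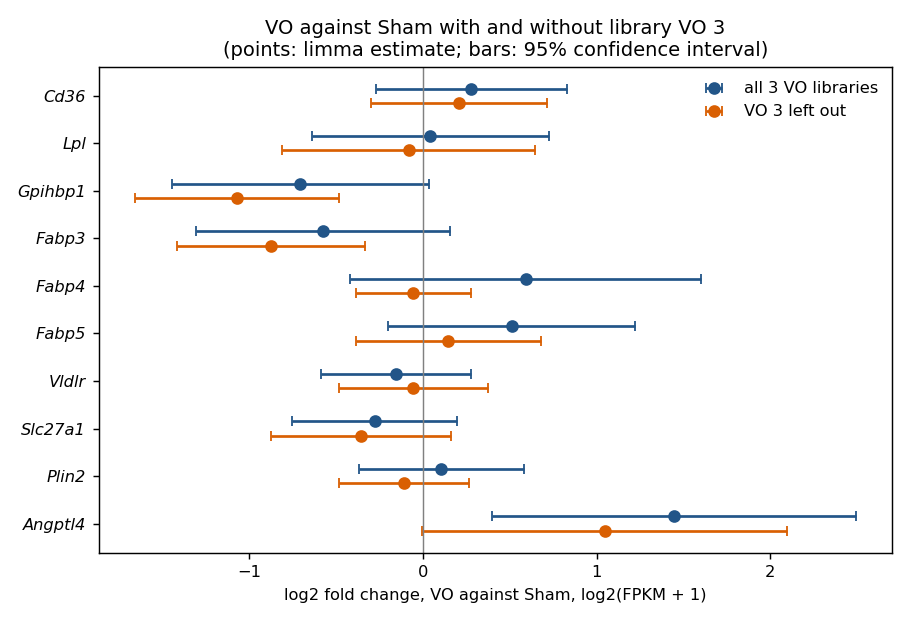
Log2 fold change of each gene in VO against Sham with its 95% confidence interval from limma, with all 3 VO libraries in blue and with VO 3 left out in orange. Without VO 3, Gpihbp1 moves to -1.07 and Fabp3 to -0.88, and Fabp4 moves to -0.06.

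The make-up of the 3 binding proteins can be read within each library. Fabp3 made up 85.5%, 89.9% and 89.9% of the summed FPKM of Fabp3, Fabp4 and Fabp5 in CsA libraries, 84.6%, 86.3% and 75.3% in VO libraries, and 92.1%, 92.1% and 89.8% in Sham libraries. Every VO library lay below every Sham library, VO 3 by the most, and CsA overlapped VO. The share of Fabp4 was 11.4% to 22.2% in VO and 6.59% to 8.88% in Sham. Per length of the longest coding transcript it was 37.8% to 57.0% in VO and 25.4% to 32.0% in Sham, so the order of the groups was the same on both scales. Cd36 was 0.897 to 1.36 times the summed endothelial markers in CsA, 1.38 to 2.05 times in VO and 0.820 to 1.02 times in Sham. VO lay above both other groups, although CsA 1 and VO 2 nearly met. Cd36 FPKM alone overlapped between VO and each of the other groups. These ratios were chosen after values were seen and get no test. GC content was 53.9% for Fabp3, 42.7% for Fabp4 and 38.4% for Cd36. The ratios were not corrected for the GC trend, and its part in them was not tested.

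CsA against VO asks whether the drug changed these genes under overload. Angptl4 had 30.6, 10.5 and 20.3 FPKM in CsA libraries 1 to 3, against 30.1, 32.5 and 73.2 FPKM in VO libraries. CsA 1 reached the lower VO libraries and the other CsA libraries lay below them. The log2 fold change was -1.11 ± 0.468 (SE), with an unadjusted p of 0.0404 and an adjusted p of 0.283 from limma. Without VO 3 it was -0.71 (limma adjusted p = 0.363). Gpihbp1 had 24.8, 35.9 and 24.7 FPKM in CsA libraries, all above VO 1 and VO 2, with VO 3 among them, at a log2 fold change of 0.61 ± 0.330 (SE) with limma adjusted p = 0.374. Fabp3 had 1190.3, 1509 and 1491 FPKM in CsA libraries, all above VO 1 and VO 2 and below VO 3, at 0.45 ± 0.326 (SE) with limma adjusted p = 0.507. Without VO 3, Gpihbp1 was at 0.98 (limma adjusted p = 0.128) and Fabp3 at 0.74 (limma adjusted p = 0.154). VO enters both this comparison and VO against Sham, so opposite signs in them share the VO libraries. The other 7 genes had log2 fold changes between -0.27 (Fabp4) and 0.14 (Vldlr). No gene of the 10 had groups that did not overlap, against 21.2% of all genes.

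CsA against Sham asks whether treated overload hearts still differed from sham hearts. Fabp4 had 175, 151 and 137 FPKM in CsA libraries, against 126, 129.8 and 112 FPKM in Sham libraries. Every CsA library lay above every Sham library, with CsA 3 close to Sham 2. It was the only 1 of the 10 genes without overlap, against 9.74% of all genes. The log2 fold change was 0.32 ± 0.451 (SE) and limma adjusted p = 1.00. With VO 3 left out of the fit, the SE was 0.129 and limma adjusted p = 0.897. Angptl4 was at 0.34, with a 95% confidence interval of -0.71 to 1.39. The remaining CsA values were 587 to 870.3 FPKM for Cd36, 172 to 339.6 FPKM for Lpl, 31.0 to 41.5 FPKM for Vldlr and 13.6 to 23.4 FPKM for Slc27a1. For Fabp5 they were 19.0 to 31.6 FPKM and for Plin2 14.9 to 19.3 FPKM. Each of these overlapped Sham. The 8 genes other than Fabp4 and Angptl4 had log2 fold changes between -0.26 (Slc27a1) and 0.28 (Fabp5).

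Other genes of lipid supply were read from 6 lists in VO against Sham, where 2.04% of all genes passed as higher and 2.72% as lower. Of 9 tested partners of the lipase and lipoprotein receptors, 0 rose and 3 fell, with a median log2 fold change of -0.87 over the 9. Without VO 3, where 6.98% of all genes passed as higher and 8.10% as lower, 6 of the 9 fell. With VO 3 kept and the GC trend removed, the median was -0.48. Furin, a protease that cleaves Lpl and angiopoietin-like proteins, had 4.96, 5.83 and 3.86 FPKM in VO libraries, against 15.6, 10.1 and 15.9 FPKM in Sham libraries, a log2 difference of -1.32 (adjusted p = 0.0382 by limma). The lipoprotein receptor Lrp1 had 6.91, 7.36 and 3.6998 FPKM in VO libraries, against 19.7, 10.8 and 18.5 FPKM in Sham libraries, at -1.31 (limma adjusted p = 0.0451). The lipoprotein receptor Scarb1 had 3.34, 3.57 and 3.85 FPKM in VO libraries, against 8.14, 6.16 and 7.93 FPKM in Sham libraries, at -0.87 (limma adjusted p = 0.0408). For these 3 genes the groups did not overlap, which held for 33.1% of all tested genes. It adds no support, since the genes were named for passing a test on the same libraries. VO 3 was the lowest of the 9 libraries for Furin and Lrp1.

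Of 16 tested genes of droplet coats and lipolysis, 1 rose and 1 fell, and without VO 3, 1 rose and 2 fell. Hilpda, an inhibitor of triglyceride lipolysis that hypoxia induces, had 9.10, 6.33 and 11.8 FPKM in VO libraries, against 3.29, 5.15 and 3.29 FPKM in Sham libraries, with a log2 difference of 1.02 (adjusted p = 0.0473 by limma). Hormone-sensitive lipase, Lipe, had 1.76, 2.21 and 3.28 FPKM in VO libraries, against 7.92, 5.69 and 7.21 FPKM in Sham libraries, at -1.23 (limma adjusted p = 0.0406). Of 19 regulators, 1 rose and 1 fell, and without VO 3, 1 rose and 5 fell. The hypoxia factor Hif1a had 51.0, 40.0 and 39.9 FPKM in VO libraries, against 21.1, 28.0 and 24.5 FPKM in Sham libraries, at 0.80 (limma adjusted p = 0.0408). The nuclear receptor Esrra, which drives oxidative genes, had 15.5, 24.0 and 21.6 FPKM in VO libraries, against 36.7, 34.4 and 33.7 FPKM in Sham libraries, at -0.77 (limma adjusted p = 0.0422). None of these 4 genes had overlapping groups, nor did 33.1% of all tested genes. This too follows closely from how they were named.

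Of 10 other transporters and binding proteins, 1 rose and 0 fell: the thioesterase Lypla1, at 0.86 (limma adjusted p = 0.0478). Without VO 3, 1 rose and 2 fell. Of 17 genes of fatty acid activation and triglyceride synthesis, 0 rose and 1 fell: the acyltransferase Agpat1, at -0.66 (limma adjusted p = 0.0467). None of 17 other PPAR targets passed, and the smallest p belonged to Ucp2 at -0.98 (limma adjusted p = 0.0591). Without VO 3, 0 of the 17 rose and 4 fell, against 6.98% and 8.10% of all genes. These 9 calls sit close to the threshold. Once the GC trend was removed 0.00% of all genes passed (limma, smallest adjusted p = 0.0662), and no gene passed when CsA 1, CsA 3, VO 1 or Sham 3 was left out, and 1 passed without Sham 1. No gene passed either without the filter on low values or with only VO and Sham in the fit. Without VO 3, 8 of the 9 passed, the exception being Hilpda (limma adjusted p = 0.0511). In CsA against VO no list gene passed, and the values with the smallest p included Scarb1 at 0.74 (limma adjusted p = 0.204), Lipe at 0.87 (limma adjusted p = 0.218) and Flt1 at 0.63 (limma adjusted p = 0.211). In CsA against Sham no list gene passed either, and the smallest p belonged to Rxrb at -0.37 and Meox2 at 0.41, each with limma adjusted p = 1.00.

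**Figure D5:**
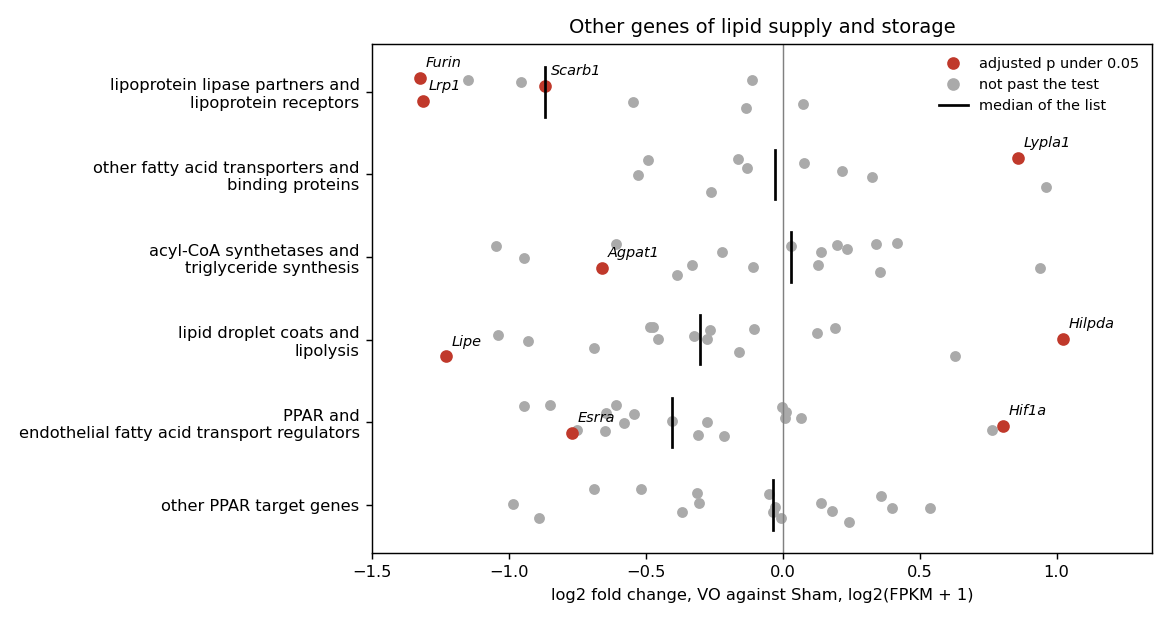
Log2 fold change in VO against Sham of each tested gene of the 6 lists, one row per list, with genes past the test in red, the others in grey and the median of each list as a black bar. The lipase partners have the lowest median, at -0.87, and Hilpda, Lypla1 and Hif1a are the genes past the test on the right of 0.

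To place the 10 genes among all others, the most alike genes were sought among 5888 protein-coding genes, by the root mean square difference of log2 deviations over the 9 libraries. Closest to Angptl4 was B2m, the light chain of MHC class I, at a difference of 0.246. B2m had 402, 154 and 254 FPKM in CsA, 407, 343 and 599 FPKM in VO, and 137, 326 and 188 FPKM in Sham libraries. It shared with Angptl4 the high VO 3 and the high Sham 2 within its group. Among the genes closest to Gpihbp1 was the ferritin gene Fth1 at 0.0855, which was also lowest in VO 1. Closest to Fabp3 was the mitochondrial elongation factor Tufm at 0.0903, and closest to Fabp4 the ATP synthase subunit gene Atp5j2 at 0.119. Atp5j2 had 471 FPKM in VO 3 and 90.7 to 155 FPKM in the other libraries. Cd36 was closest to Rnf13 at 0.0735, Lpl to Gpcpd1 at 0.0891, Fabp5 to Gng11 at 0.117, Vldlr to Lifr at 0.0662, Slc27a1 to Med25 at 0.101 and Plin2 to Lamtor3 at 0.0896. The median difference over the candidates was 0.335 to 0.857, depending on the gene.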

How the data were processed

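Bulk RNA sequencing of right ventricular myocardium gave 9 libraries in 3 groups. Per the labels' protocols, Trizol RNA (1 μg per library) went into an NEBNext Ultra kit. The values are FPKM per gene as the authors deposited them. Tools named without a role, per the submitters' processing notes, are HISAT2 (2.0.5), featureCounts (1.5.0-p3), StringTie (1.3.3b), GATK (3.7) and DESeq2 (1.20.0), with builds GRCm38 and mm10. Strand use and annotation release are not given in the sources used here. Gene lengths are those of the deposited table, and GC content and coding transcripts come from GENCODE M21.

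Low values were whole multiples of 1 fragment (100% within 0.1), which gave the recovered fragments and the depth. Counting error does not cover PCR copies. No replicate pair agreed within sampling noise: the chi-square per gene was 12.4 to 29.1 for pairs without VO 3 and 200.4 and 146 with it.

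The 13477 genes whose mean reached 0.5 FPKM entered 1 fit of all 9 libraries on log2(FPKM + 1), in R 4.3.3 with limma 3.58.1, allowing the variance to follow the level, no covariate and two-sided Benjamini-Hochberg adjustment at 0.05 within each comparison. A fold change on this scale understates the change of low genes. Alternatives were other pseudocounts, filters and scalings, removal of a loess trend with GC content (span 0.3), a replicate block and libraries left out.

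The members, lists and tests were chosen with earlier results of these data known. Named are all 10 members, the list genes past the test or, with none, those with the smallest p, and the nearest genes; a few of these are not reported here. The libraries' numbers share only a number between groups.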

Additional observations from a re-analysis of the deposited data

How the results depend on the processing

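Over 19 alternatives, 522 of 570 single-gene values kept their direction and their side of the threshold. This count says little about robustness, since part of the values could not change direction. The replicate block left the log2 fold changes as they were, and so did leaving out a library of the group not compared. None of these genes passed in the fit of all 9 libraries, so a value could change side only by passing the threshold. Leaving out VO 3 brought Gpihbp1 and Fabp3 past it in VO against Sham. Over all alternatives and comparisons, 46 values changed sign. Each belonged to a gene in a comparison where its absolute log2 fold change with all 9 libraries was at most 0.59. Angptl4 stayed above 0 in VO against Sham, at 0.68 to 1.83, with adjusted p of 0.0679 to 0.975. The lowest value of these genes in a library was 408 fragments. The planned count test on recovered fragments is not reported here, since the deposited values are FPKM.

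The number of genes past the test in VO against Sham, 642 with all libraries, was 0 without a filter on low values, 0 with only the 2 groups compared, 0 with the GC trend removed, 3 without Sham 1, Sham 3 and CsA 3, and 19 with VO 3 left out and the GC trend removed. With a replicate block it was 1. The labels do not pair the numbers, and same-numbered libraries correlated over genes at -0.04, 0.06 and -0.04 for VO with Sham, at 0.24, -0.09 and 0.05 for CsA with VO, and at -0.21, -0.40 and -0.25 for CsA with Sham. Leaving out 1 library gave 0 to 2032 genes, with the most without VO 3, and 0 to 2 of the 10 genes. In CsA against VO leaving out 1 library gave 0 to 1 genes, and VO 3 left out with the GC trend removed gave 1. In CsA against Sham it gave 0 to 3 genes, and 3 passed without Sham 1, Sham 3 and CsA 3. The cause was not tested.

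Changes of sign are given as log2 fold changes. In VO against Sham, removing the GC trend gave -0.081 for Cd36, -0.17 for Lpl and 0.027 for Slc27a1, and doing so without VO 3 gave -0.26 for Cd36, -0.35 for Lpl, -0.36 for Fabp4 and 0.031 for Slc27a1. Plin2 was at -0.15 without Sham 1, Sham 3 and CsA 3. Leaving out 1 library gave -0.14 to 0.24 for Lpl, -0.057 to 0.96 for Fabp4 and -0.11 to 0.24 for Plin2.

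In CsA against VO, removing the GC trend gave 0.054 for Cd36 and -0.16 for Slc27a1. Doing so without VO 3 gave 0.24 for Cd36, 0.14 for Lpl, 0.58 for Fabp4, 0.12 for Fabp5, -0.16 for Slc27a1 and 0.012 for Plin2. Without Sham 1, Sham 3 and CsA 3, Cd36 was at 0.033 and Lpl at 0.061. Leaving out 1 library gave -0.30 to 0.033 for Cd36, -0.43 to 0.061 for Lpl, -0.64 to 0.38 for Fabp4, -0.46 to 0.13 for Fabp5, -0.22 to 0.15 for Slc27a1 and -0.21 to 0.14 for Plin2.

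In CsA against Sham, removing the GC trend gave -0.027 for Cd36, with or without VO 3. Without Sham 1, Sham 3 and CsA 3 the values were 0.47 for Lpl, 0.13 for Gpihbp1, -0.14 for Fabp5, 0.20 for Vldlr, -0.21 for Plin2 and -0.49 for Angptl4. Leaving out 1 library gave -0.38 to 0.10 for Lpl, -0.086 to 0.12 for Vldlr, -0.072 to 0.15 for Plin2 and -0.00017 to 0.73 for Angptl4.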
